A study of Homo sapiens with 4 samples.

Results

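Pericentromeric sequence and the unplaced contigs of the human assembly were examined for peaks of phosphorylated histone H2A.X (γH2AX). The members were the rows of 4 deposited peak lists, 1 row per peak summit, whose midpoint lay in 11 windows of the genome build hg38 (104 Mb in all, on 10 chromosomes) or which lay anywhere on a contig whose name contains "random" or "Un_". The windows, in Mb, were chromosome 1 from 120 to 126 and from 143 to 146, chromosome 2 from 90 to 97, chromosome 7 from 57 to 64, chromosome 9 from 38 to 69, chromosome 10 from 37 to 44, chromosome 16 from 33 to 48, chromosome 17 from 21 to 28, chromosome 20 from 24 to 32, chromosome 21 from 7 to 15 and chromosome 22 from 14 to 19. Of 217091 rows in the 4 lists, 2623 were members, 2329 of them in the windows and 294 on the contigs. The choice used position alone and no measured value.

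Chromatin immunoprecipitation with sequencing of the precipitate (ChIP-seq) was used to map γH2AX along the genome of SK-UT-1, a human uterine leiomyosarcoma cell line. Of the 4 libraries, the first came from cells given 0.1% DMSO, the vehicle, and the second from cells given 1 µM OTS186935, an inhibitor of the histone methyltransferase SUV39H2. The third came from cells given 0.5 µM doxorubicin, a topoisomerase II poison, and the last from cells given both drugs, dosed as when given singly (called the combination); the title of the series names a PARP inhibitor, but doxorubicin was the partner drug here. There was 1 library of 1 cell line per condition, so nothing was tested between conditions, values stand side by side, and intervals (exact, 95%) cover counting error only.

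Pericentromeric heterochromatin flanks the centromere of each chromosome. It is rich in satellite repeats and segmental duplications and is marked by methylation of lysine 9 of histone H3, which SUV39H1 and SUV39H2 lay down and which binds heterochromatin protein 1. Unplaced ("Un_") contigs belong to no known chromosome and unlocalised ("random") contigs to a chromosome but no known position; many hold satellite repeats, duplicated segments or ribosomal DNA, and a read from such sequence can often be placed at several near-identical copies. How reads with several placements were treated is not given in the sources used here, so peaks on repeated sequence are uncertain in place, and a contig peak may gather reads from copies that the assembly lacks.

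The window promoters that a peak overlapped in all 4 lists are shown by their sequence, since the windows hold few genes. Of 585 promoters in the windows (RefSeq, GRCh38.p14, 250 bases before to 50 after a start), 4 were overlapped by a peak in all 4 libraries, 1 of a protein-coding gene and 3 of long non-coding RNAs, of which 2 are neighbouring starts of one locus. This was 0.684% of the window promoters, against 2.15% of all promoters. For 3 of them, leaving out the upstream start of LOC124902156, the sequence is given 5′ to 3′ on the plus strand, which is their own, with the bases that lay inside the peaks of all 4 libraries in capitals. TPTE, which encodes a testis-enriched transmembrane phosphatase related to tensin, starts on chromosome 21 (chr21:10521333-10521632). LOC105371204 starts on chromosome 16 (chr16:35507024-35507323), and the downstream start of LOC124902156 lies on chromosome 9 (chr9:38687480-38687779), wholly inside the peaks. For TPTE only the first 94 bases lay in all 4 peaks, and for LOC105371204 only the first 51. These bases lie before the start itself, and all 4 summits at LOC105371204 lay before the printed bases.
TPTE: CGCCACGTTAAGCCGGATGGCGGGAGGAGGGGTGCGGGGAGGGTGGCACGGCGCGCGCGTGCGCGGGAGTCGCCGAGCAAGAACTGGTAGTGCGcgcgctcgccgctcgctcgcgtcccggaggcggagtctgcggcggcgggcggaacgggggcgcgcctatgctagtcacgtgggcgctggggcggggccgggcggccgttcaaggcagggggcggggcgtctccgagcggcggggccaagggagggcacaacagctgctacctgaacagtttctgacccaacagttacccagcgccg
LOC105371204: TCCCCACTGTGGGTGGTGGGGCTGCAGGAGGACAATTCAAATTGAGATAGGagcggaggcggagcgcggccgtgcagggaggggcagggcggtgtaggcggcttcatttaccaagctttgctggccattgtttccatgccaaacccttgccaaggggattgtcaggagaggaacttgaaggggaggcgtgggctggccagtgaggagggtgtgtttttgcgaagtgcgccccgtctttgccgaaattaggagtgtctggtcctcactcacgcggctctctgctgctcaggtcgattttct
LOC124902156: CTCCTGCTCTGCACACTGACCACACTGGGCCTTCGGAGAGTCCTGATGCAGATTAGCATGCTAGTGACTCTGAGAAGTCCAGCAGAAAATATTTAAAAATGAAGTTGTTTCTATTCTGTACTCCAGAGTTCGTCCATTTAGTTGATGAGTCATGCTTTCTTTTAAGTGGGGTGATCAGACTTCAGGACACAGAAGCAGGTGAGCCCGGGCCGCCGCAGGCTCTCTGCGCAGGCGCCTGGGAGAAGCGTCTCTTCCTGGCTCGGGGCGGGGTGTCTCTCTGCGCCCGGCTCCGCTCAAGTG

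The promoter of TPTE was 74% G and C with 44 CpG, against medians of 62.7% and 20.5 CpG over the 260 protein-coding promoters of the windows. Its peak fold enrichment over local background, the authors' deposited value, stood at 7.53 with DMSO, 6.07 with OTS186935, 5.45 with doxorubicin and 4.93 in the combination. TPTE has near-identical relatives on other acrocentric chromosomes, so the place of these reads is uncertain. LOC105371204 had folds of 4.04, 6.66, 4.24 and 5.35 in the same order, highest with OTS186935. Its summits held 8, 13, 5 and 8 sequenced fragments, with counting intervals that overlap. LOC124902156 had folds of 5.31, 5.16, 4.6 and 3.59, lowest with the combination. Its summits held 8, 8, 7 and 6 fragments, and those of TPTE 16, 9, 8 and 7.

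Members made up a small share of every list. The share was 1.18% of 76870 rows with DMSO (906 rows, interval 1.1 to 1.26%), 1.18% of 62008 with OTS186935 (731 rows, 1.1 to 1.27%), 1.23% of 48594 with doxorubicin (596 rows, 1.13 to 1.33%) and 1.32% of 29619 with the combination (390 rows, 1.19 to 1.45%). These intervals overlap. The shares were also taken among rows with a −log10 q of 5 or more. They were 1.36% (interval 1.2 to 1.54%), 1.47%, 2.1% (1.72 to 2.55%) and 2.07% (1.55 to 2.7%). Here, unlike with lists of equal length, the intervals of doxorubicin and, narrowly, the combination lay above that of DMSO. With touching rows joined, such peaks numbered 206, 118, 68 and 26 in the windows and 43, 32, 30 and 21 on the contigs. Whole lists had 18698, 10624, 4792 and 2496. From DMSO to the combination the windows fell about as far as the whole list, and the contigs less. For doxorubicin both fell less than the list, the contigs least. The contigs' own share was higher in each list that was shorter, at 0.116% (interval 0.093 to 0.142%) with DMSO, 0.124% with OTS186935, 0.146% with doxorubicin and 0.192% (0.146 to 0.249%) in the combination. In rows, the windows went from 817 with DMSO to 654, 525 and 333, and the contigs from 89 to 77, 71 and 57. The combination thus listed 40.8% as many window rows as DMSO, close to the 38.5% of all sequence outside, and 64% as many contig rows.

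**Figure D1:**
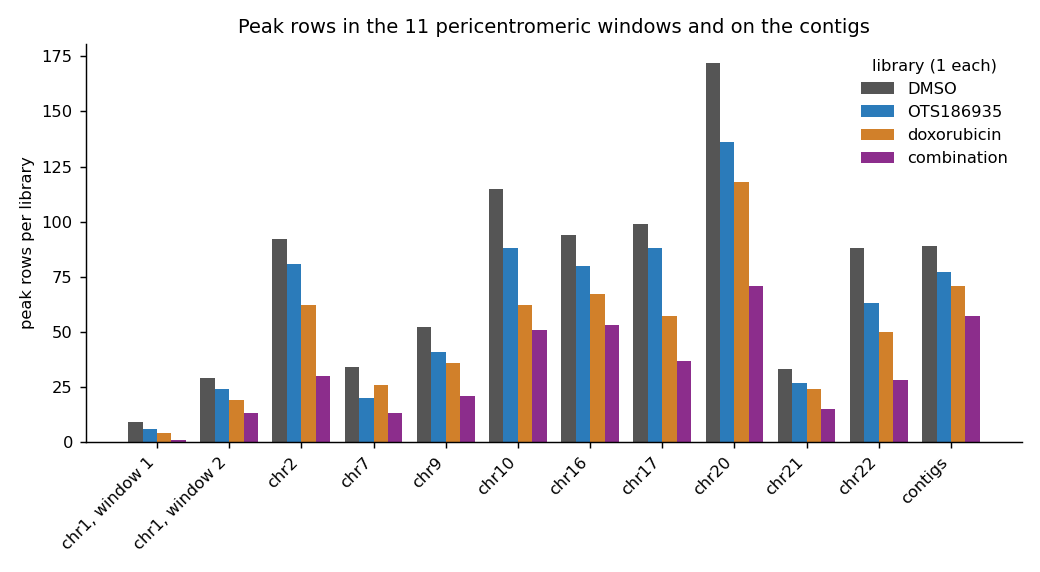
Rows of each deposited peak list (vertical axis, peak rows per library) in each window, named by its chromosome, and on all contigs; bars are the 4 libraries, 1 each, with no replicate error. Chromosome 20 holds the most rows in every library (172 with DMSO, 71 with the combination), and the combination's bar is the lowest in every group.

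Sequencing depth is not given in the sources used here. The peak caller MACS2 computes its fold and −log10 p from the number of fragments over a summit and the background around it, and both numbers were recovered here from the deposited values. The commonest background of a list, its floor, stands in for depth; it was 0.454 fragments with DMSO, 0.397 with OTS186935, 0.389 with doxorubicin and 0.428 in the combination. Strength is given on 2 scales: the fold ranks peaks within a list, and summit fragments divided by the floor set libraries side by side. Where a region or gene is called highest or lowest by fold, that is the order of the folds alone. Window peaks had medians of 8, 8, 7 and 7 summit fragments in the 4 lists, so such orders rest on few fragments and were not tested. No input library was used here.

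The strongest peak of every list by fold lay on an unplaced contig beside a ribosomal RNA gene. Ribosomal DNA encodes the 45S precursor of the 18S, 5.8S and 28S ribosomal RNAs in tandem repeats on the acrocentric chromosomes, transcribed by RNA polymerase I and separated by intergenic spacers. On chrUn_GL000220v1 the peak spanned 118872 to 120175 with DMSO, and its fold stood at 20.7 with DMSO, 19.4 with OTS186935, 23.1 with doxorubicin and 21.2 in the combination. Outside the windows and contigs the highest folds of the same lists were 15.8, 14.8, 14.8 and 11.5. The fold was highest with doxorubicin, and that of the combination lay between those of DMSO and doxorubicin.

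Summit fragments at this peak numbered 161 fragments (interval 137 to 188) with DMSO, 120 (99.5 to 143) with OTS186935, 106 (86.8 to 128) with doxorubicin and 81 (64.3 to 101) in the combination. Per floor this was 355, 302, 272 and 189, so that the summit was lowest with the combination while the fold stayed near that of DMSO. The background beneath the peak was lower too, at 6.82, 5.25, 3.64 and 2.87 fragments. The combination's ratio to DMSO was 0.534, against a median of 0.477 over the 989 shared regions outside with at least 20 DMSO fragments, a limit chosen after values were seen.

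The peak stood just past the end of the annotated unit. RNA45SN5 spans 105424 to 118780 in the RefSeq table, which does not name the scaffold; that it is this contig is general knowledge of the assembly. Measured from that end, the peak began 92 bases past it with DMSO, 28 with OTS186935, 90 with doxorubicin and 115 in the combination. Its summit lay 1086, 1090, 1094 and 1094 bases past the end, so the 4 summits agree within 8 bases. No peak lay inside the unit in any list.

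A second ribosomal DNA unit also carried a peak at its end, at another offset. RNA45SN4 spans 122273 to 135645 and is taken here to lie on chr22_KI270733v1_random, on the same grounds. The peak spanned 135180 to 136363 with DMSO and overlapped the end of the unit. Its fold stood at 10.7 with DMSO, 10.9 with OTS186935, 12.2 with doxorubicin and 10.7 in the combination, with 63, 50, 43 and 30 summit fragments. As at RNA45SN5, the fold was highest with doxorubicin and the fragments were lowest with the combination. The summits lay 171, 162, 161 and 160 bases past the end. The 3 units placed on chromosome 21 (RNA45SN1, RNA45SN2 and RNA45SN3) had 0 peaks in the unit or the 2 kb after it in any list.

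**Figure D2:**
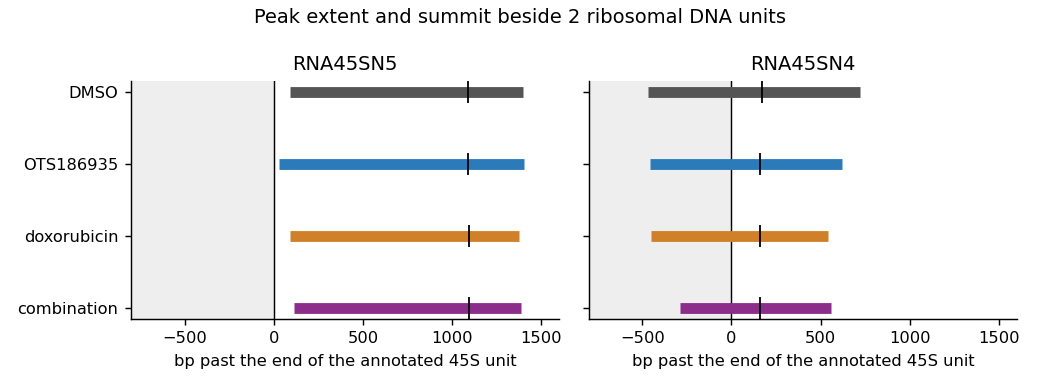
Extent (bars) and summit (black ticks) of the peak at the end of RNA45SN5 and RNA45SN4 in each library (vertical axis), in bases past the end of the annotated 45S unit (horizontal axis; grey is the unit). Summits stand at 1086 to 1094 bases past the end of RNA45SN5 and at 160 to 171 past that of RNA45SN4.

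Among the contig regions with at least 30 DMSO fragments, those of 1 contig had more fragments with the combination than with DMSO. On chrUn_KI270438v1 the peak from 109262 to 112477 held 3 summits in each library. At the main summit, near position 110531, fragments came to 66 (interval 51 to 84) with DMSO, 74 (58.1 to 92.9) with OTS186935, 58 (44 to 75) with doxorubicin and 142 (120 to 167) in the combination. Only the combination's interval stood clear of DMSO's, and per floor the values were 145, 186, 149 and 332. The fold was 9.08, 10.3, 10.2 and 13.6, and the −log10 q of 103 was the highest in the combination's whole list.

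The combination's summit was 2.28 times that of DMSO per floor. Of 17096 regions outside that both libraries called, 133 (0.778%) had a ratio that high or higher. Of the 989 with at least 20 DMSO fragments, 0 had; this place among regions is a description of these 2 libraries, picked after the values were seen. The flanking summits of the peak had 59 and 42 fragments with DMSO and 80 and 50 in the combination, with intervals that overlap. The background beneath the main summit was also higher, at 9.51 fragments with the combination against 6.38 with DMSO.

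A neighbouring peak on the same contig, from 103437 to 105982, held its main summits at other positions in each library. At the summit of highest fold it had 38 fragments with DMSO (interval 26.9 to 52.2), 30 with OTS186935, 27 with doxorubicin and 50 (37.1 to 65.9) in the combination. Per floor the combination was 1.4 times DMSO, and 0 of the 989 outside regions with at least 20 DMSO fragments reached that ratio, as for the first peak; over all 17096 shared regions 10.5% did. At a second summit, near position 104938, it had 43, 44, 25 and 49 fragments. At both summits the intervals of DMSO and the combination overlap. The sequence of the contig was not used here, so its repeats are not named.

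Other strong contig peaks were lower with the combination. On chr17_GL000205v2_random the peak from 56633 to 57759 had 68, 50, 39 and 28 summit fragments with DMSO, OTS186935, doxorubicin and the combination, and folds of 12.5, 11, 10.7 and 9.17. On chrUn_KI270744v1 the peak from 59437 to 60160 had 60, 29, 31 and 21 fragments and folds of 14, 9.37, 12.6 and 10.1. In both peaks the intervals of DMSO and the combination did not overlap. On chrUn_KI270742v1 the peak from 15267 to 16102 had 33, 18, 17 and 18 fragments, with the 3 treated libraries close together. A further peak on chrUn_KI270744v1, from 71378 to 71940, had its highest value with OTS186935, with 27, 37, 19 and 7 fragments and folds of 9.27, 12.3, 10.3 and 5.6.

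Choosing peaks that are strong with DMSO favours DMSO, and the part of this choice in the lower treated levels was not tested. Over the 38 contig regions that DMSO and the combination both called, the median ratio of summit fragments per floor was 0.579, and 7 of 38 were above 1. In the windows the median was 0.825 over 217 regions, and outside it was 0.825 over 17096. The median over the 989 outside regions of at least 20 fragments was lower still, at 0.477. For OTS186935 the medians were 0.996 on the contigs, 1.02 in the windows and 1 outside.

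**Figure D3:**
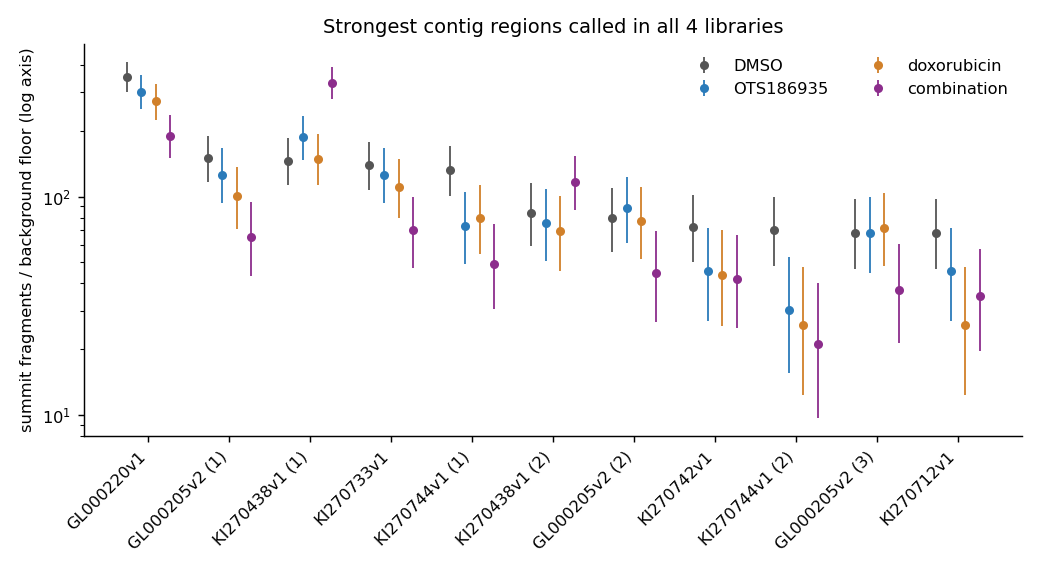
Summit fragments divided by the library's background floor (vertical axis, log scale) for the 11 contig regions called in all 4 libraries with at least 30 DMSO fragments; points are libraries and bars exact 95% Poisson intervals of the fragments. The main peak of KI270438v1 is at 332 with the combination against 145 with DMSO, while GL000220v1 is at 189 against 355.

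Contig peaks recurred between libraries more often than others. After rows of a list that overlapped or touched were merged, DMSO had 75 peaks on the contigs, and 53 of them (70.7%, interval 59 to 80.6%) were overlapped by a peak with OTS186935, 49 (65.3%, 53.5 to 76%) with doxorubicin and 39 (52%, 40.2 to 63.7%) in the combination. Over all 72934 DMSO peaks the shares were 44.5%, 35.1% and 23.7%. The 3 shares use the same DMSO peaks and are not independent of each other. An overlap of 1 bp counted, and contig peaks were wider, with a DMSO median of 591 bp against 465 for all peaks. At a reciprocal overlap of 50% the contig shares were 49.3%, 50.7% and 34.7%, against 37.6%, 28.2% and 18.3% outside. Of the doxorubicin peaks on contigs, 57.4% were overlapped with the combination, against 27.4% of all doxorubicin peaks.

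Contig peaks were also stronger than others, and stronger peaks recurred more often everywhere. With DMSO, 57.3% of contig peaks had a −log10 q of 5 or more against 25.6% of all peaks. The treated lists had 53.3%, 49.2% and 43.8% on contigs against 17.8%, 10.1% and 8.53% of all their peaks. When peaks outside were weighted to the contigs' bands of −log10 q, an alternative added after the data were seen, 56.2%, 47.7% and 34.7% of them had a counterpart with OTS186935, doxorubicin and the combination. The contigs' shares lay above these values in all 3 libraries, though for the weakest 11 contig peaks (−log10 q below 2) only 2, 2 and 1 had a counterpart. The top band, a −log10 q of 10 or more, has no upper limit and held 18 DMSO contig peaks. These reached 149, against at most 50.2 outside, and peak width was not weighted. The weighting therefore cannot part contigs from strength or width.

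Recurrence did not rest on the fullest contig. Rows were listed on 36 contigs, 17 unplaced and 19 unlocalised, and the number with a row stood at 32 with DMSO, 29 with OTS186935, 24 with doxorubicin and 23 in the combination. The unlocalised chromosome 14 contig GL000225v1 had the most, with 21, 20, 15 and 12 rows. Without it the shares of DMSO contig peaks with a counterpart were 65%, 63.3% and 46.7%. GL000205v2 of chromosome 17 had 7, 6, 7 and 6 rows and KI270744v1 had 7, 6, 7 and 6, nearly as many with the combination as with DMSO.

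Contigs with a row in all 4 lists numbered 18. The unlocalised ones were GL000225v1 and KI270722v1 of chromosome 14, GL000205v2 and KI270729v1 of chromosome 17, KI270709v1 and KI270712v1 of chromosome 1, and KI270732v1, KI270733v1 and KI270735v1 of chromosome 22. The unplaced ones were GL000195v1, GL000220v1, KI270438v1, KI270442v1, KI270467v1, KI270742v1, KI270744v1, KI270749v1 and KI270754v1. KI270729v1 had more rows with the combination (4) than with DMSO (1), and KI270442v1 had fewer (1 against 4). When peaks were joined over the lists, 35 of 96 contig regions (36.5%, interval 26.9 to 46.9%) were called in all 4, against 7.39% of all joined regions.

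The local background was raised at many contig peaks. It was at least 3 times the floor at 48% of the DMSO peaks on contigs, 46.7% with OTS186935, 42.6% with doxorubicin and 35.4% in the combination, against 29.6%, 29.9%, 28.1% and 25.7% of all peaks. In the windows the shares were 29.1%, 30.2%, 29.6% and 25%, close to those of all peaks. Among windows they ran from 51.1% on chromosome 2 to 8.16% on chromosome 9 with DMSO, leaving aside the first chromosome 1 window with 0 of 9 peaks. The part that repeated sequence has in these backgrounds was not tested.

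Most window rows lay near the window edges, and the sequence just outside held more still. Of 104 intervals of 1 Mb, 52 held no row in any of the 4 lists, 22 of them among the 31 of chromosome 9 and 9 among the 15 of chromosome 16; assembly gaps were not told apart from empty sequence. The 20 fullest intervals held 85.3% of the DMSO window rows, 87% with OTS186935, 82.7% with doxorubicin and 87.4% in the combination. The outermost 1 Mb inside the edges held 477 of 817, 391 of 654, 298 of 525 and 185 of 333 window rows. The first 1 Mb outside the same edges held 577, 484, 369 and 249 rows. An interval with any DMSO row held a median of 6 rows (quartiles 3 and 25) in the windows, against 23 (12 and 47.2) on the same chromosomes outside.

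The windows differed in density. With DMSO, chromosome 20 had 21.5 rows per Mb, chromosome 22 had 17.6 and chromosome 10 had 16.4. The first chromosome 1 window had 1.5 and chromosome 9 had 1.68.

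Window peaks recurred slightly more often than all peaks, and the windows were unlike each other. Of 767 DMSO peaks, 50.6% (interval 47 to 54.2%) were overlapped with OTS186935, 41.3% (37.8 to 44.9%) with doxorubicin and 28% (24.9 to 31.4%) in the combination. Weighted to the same bands of −log10 q, peaks outside gave 44.9%, 35.5% and 23.9%, below the intervals of the windows. On chromosome 16 the shares were 55.2%, 57.5% and 46%, on chromosome 21 62.1%, 55.2% and 41.4%, and on chromosome 22 42.7%, 28% and 17.1%. With lists of equal length, an alternative added later, chromosome 16 had 75% (27 of 36, interval 57.8 to 87.9%) in each of the 3 treated libraries. Peaks outside had 42.3%, 40.1% and 36% at that length. The combination's intervals for chromosome 16 (35.2 to 57%) and chromosome 22 (9.66 to 27%) do not overlap, and that for chromosome 21 (23.5 to 61.1%, 29 peaks) is wide.

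**Figure D4:**
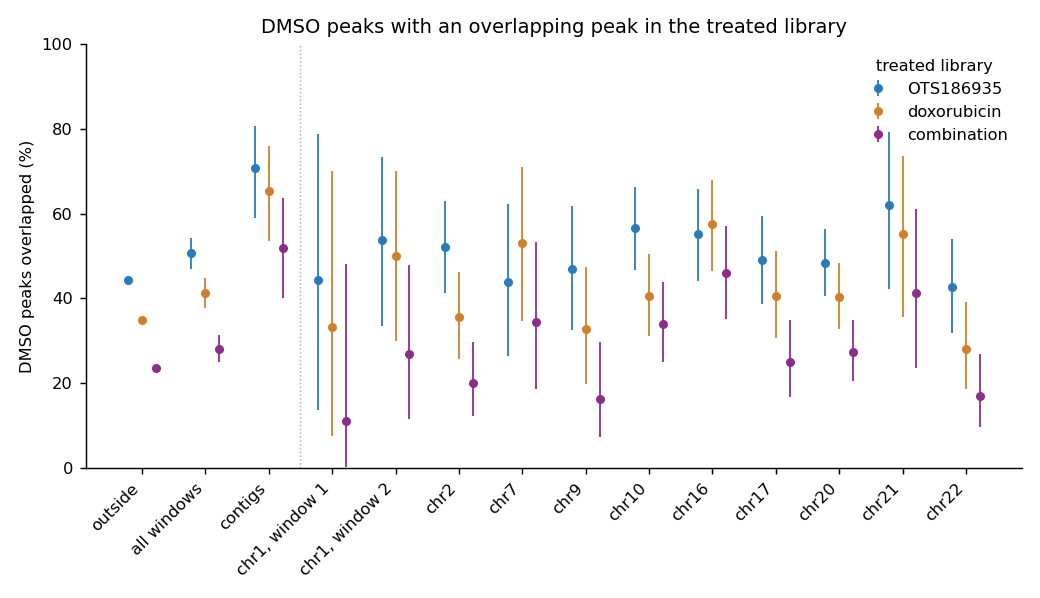
Percent of merged DMSO peaks overlapped by a peak of the treated library (vertical axis), outside, in all windows, on the contigs and in each window named by its chromosome; points are the 3 treated libraries and bars exact 95% binomial intervals. The contigs are at 70.7%, 65.3% and 52%, above the values outside (44.4%, 35% and 23.6%), and chromosome 16 stands highest among the windows with the combination, at 46%.

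Chromosome 16 owed part of this to 1 interval, from 35 to 36 Mb. It had 28 rows with DMSO, 31 with OTS186935, 24 with doxorubicin and 25 in the combination. The number was thus nearly level over the libraries, where all sequence outside went to 38.5% with the combination. The combination listed 89.3% as many rows there as DMSO, the highest of the 1326 intervals of the genome with at least 20 DMSO rows, whose median was 38.1%. With OTS186935 its 111% ranked 37 of 1326, and with doxorubicin its 85.7% ranked 98. The interval was singled out after its values were seen, and with 28 rows a rank is loose.

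The peaks there recurred as intervals, not only in number. Of its 27 DMSO peaks, 19 (70.4%, interval 49.8 to 86.2%) were overlapped with OTS186935, 16 (59.3%, 38.8 to 77.6%) with doxorubicin and 19 (70.4%) in the combination. Over all DMSO peaks the shares were 44.5%, 35.1% and 23.7%. Of the 43 joined regions of this interval, 12 (27.9%, interval 15.3 to 43.7%) were called in all 4 libraries, against 7.39% of all regions. The background was raised (3 times the floor or more) at 3 of 27 DMSO peaks (11.1%) and 3 of 23 of the combination (13%). Over all peaks it was raised at 29.6% and 25.7%. Without this interval the chromosome 16 shares were 48.3%, 56.7% and 35%.

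Of the 12 recurrent regions, 3 are named here with the pseudogene they overlap, a copy of a gene that no longer encodes a protein. The region from 35221591 to 35222396 overlaps RARRES2P5 and the non-coding LOC105371200 and had folds of 7.87, 7.74, 5.36 and 6 with DMSO, OTS186935, doxorubicin and the combination. The region from 35492103 to 35492686 overlaps C2orf69P2 and had 6.88, 7.14, 6.48 and 7.6, highest with the combination. The region from 35543293 to 35544190 overlaps RARRES2P8 and had 7.11, 5.01, 5.75 and 4.52, lowest with the combination. Summits held 9, 11, 8 and 12 fragments at C2orf69P2 and 12, 6, 9 and 7 at RARRES2P8, with intervals that overlap. LOC105371204, whose start is printed above, lies in the same interval.

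**Figure D5:**
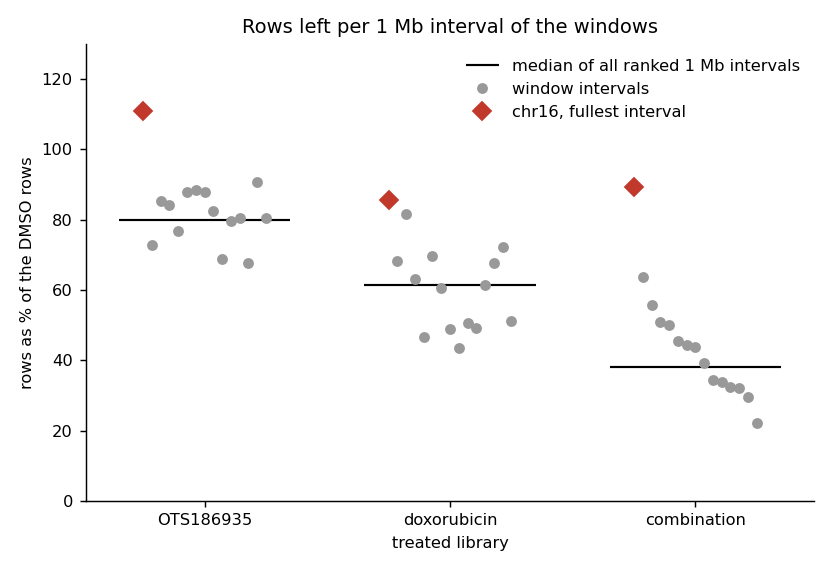
Rows of each treated library as a percent of the DMSO rows (vertical axis) in the 15 window intervals of 1 Mb with at least 20 DMSO rows (grey points, and a red diamond for the fullest interval of the chromosome 16 window); lines are medians over all 1326 such intervals of the genome. The diamond is at 111%, 85.7% and 89.3%, and the other window intervals of the combination lie from 22% to 63.6% around the median of 38.1%.

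Regions called in all 4 lists were 119 of 1219 in the windows (9.76%, interval 8.15 to 11.6%), against 7.39% of all regions. The share was 20.2% on chromosome 16 (26 of 129), 18.8% on chromosome 7, 17% on chromosome 21 and 13.7% on chromosome 10. It was 3.6% on chromosome 22 and 4.46% on chromosome 2. Regions called in the 3 treated libraries and not with DMSO numbered 11 in the windows (0.902%) and 1 on the contigs (1.04%), near the 0.805% of all regions. DMSO alone called 263 window regions (21.6%) and the combination alone 67 (5.5%), against 23.6% and 6.07% of all regions.

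The strongest window region in all 4 libraries lay on chromosome 21, from 9735374 to 9736101, in no annotated gene. Its summit fragments came to 34 with DMSO, 21 with OTS186935, 15 with doxorubicin and 16 in the combination, and its fold was 12.6, 8.95, 8.22 and 9.44. DMSO stood above the 3 treated libraries, which lay close together. It was the highest window fold of the DMSO, OTS186935 and combination lists, while with doxorubicin a region nearby, from 9758809 to 9759580, was higher at 9.32.

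Each other window had a region of this kind, taken as the one called in all 4 libraries with the highest DMSO fold, a choice that favours DMSO. On chromosome 17 the region from 22286247 to 22287032, in the non-coding LOC105371597, had folds of 9.18 with DMSO, 6.08 with OTS186935, 6.28 with doxorubicin and 5.26 in the combination. On chromosome 20 the region from 24134852 to 24135504, in no annotated gene, had 9.03, 5.8, 3.92 and 4.17. In both, the fold was highest with DMSO.

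On chromosome 16 the region from 46632844 to 46634102, 11.5 kb from SHCBP1, had folds of 7.91, 7.35, 6.12 and 5.07. On chromosome 10 the region from 43753339 to 43754168, 104 kb from ZNF32, had 7.87, 4.81, 4.38 and 3.73. On chromosome 22 the region from 17841743 to 17842818, inside MICAL3, which encodes an actin-oxidising monooxygenase, had 5.34, 4.7, 4.84 and 3.33. In these 3 regions the fold was lowest with the combination.

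On chromosome 1 the region from 143574719 to 143575542 had folds of 7.95, 8.67, 5.43 and 6.92, and on chromosome 2 the region from 96397631 to 96398135, 20.5 kb from the condensin gene NCAPH, had 7.73, 7.99, 5.6 and 4.63. Both had their highest fold with OTS186935. Their summits held 13 and 13 fragments with DMSO against 13 and 11 with OTS186935, so this order is of the fold alone. On chromosome 7 the region from 57256519 to 57257354 had 7.65, 5.26, 6.91 and 4.9, and on chromosome 9 the region from 38377171 to 38377973, 14.7 kb from ALDH1B1, had 6.63, 4.91, 5.87 and 5.82. The single such region of the first chromosome 1 window, from 125086770 to 125087936, had 3.06, 5.36, 3.14 and 4.24, the lowest value being that of DMSO. Its summits held 5, 8, 4 and 6 fragments, with intervals that overlap.

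Some strong window peaks were called with DMSO alone. On chromosome 17 the peak from 21705046 to 21705643, 0.434 kb from KCNJ18, had a fold of 10.5 and 15 summit fragments, and no treated list had a peak there. KCNJ18 encodes an inward rectifier potassium channel and is nearly identical to KCNJ12 in the same window, so the place of its reads is uncertain.

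Window peaks lay in pseudogenes more often, and in protein-coding genes less often, than peaks outside. A pseudogene was overlapped by 9.65% of the DMSO peaks in the windows, 9.34% with OTS186935, 12.1% with doxorubicin and 11% in the combination, against 2.9%, 2.96%, 3.17% and 3.31% outside. Pseudogenes cover 5.57% of the window length. A protein-coding gene was overlapped by 41.6%, 38.6%, 35.7% and 32.6% of window peaks, against 58.2%, 57.1%, 56.6% and 55.6% outside. Protein-coding genes cover 8.64% of the window length, a length in which assembly gaps are counted. The length they and pseudogenes cover outside was not measured, so these shares do not tell where peaks prefer to lie.

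Protein-coding genes of the windows had a peak within 1 kb of an end less often than others. Of 232 such genes, 55 (23.7%) had one with DMSO, 34 (14.7%) with OTS186935, 33 (14.2%) with doxorubicin and 20 (8.62%) in the combination. Over all 19974 protein-coding genes the shares were 38.7%, 28.7%, 21.9% and 14.8%. Among genes of segmental duplication families, a list drawn up with earlier results of these data known, 9, 7, 6 and 3 of 100 had an end peak. Of such genes outside, 26.2%, 17.8%, 13.8% and 11.3% had one. Zinc finger genes had one in 3, 2, 2 and 1 of 16, against 37.4%, 26.7%, 19% and 16% of those outside. The other 116 genes had one in 43, 25, 25 and 16, or 37.1%, 21.6%, 21.6% and 13.8%, which lay nearer to all genes. The gap was widest with OTS186935, but it rests on few genes and was not tested.

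End peaks in all 4 libraries were found at 8 window genes (3.45%), against 7.59% of all genes. Of these, 3 belong to duplicated families and are uncertain in place: TPTE, described above, ANKRD30A, which encodes a breast differentiation antigen, and KCNJ12, an inward rectifier potassium channel gene. ANKRD30A on chromosome 10 had end-peak folds of 5.76, 4.64, 5.13 and 4.7 with DMSO, OTS186935, doxorubicin and the combination. KCNJ12 on chromosome 17 had 4.46, 4.72, 2.91 and 4.76, lowest with doxorubicin.

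The other 5 were REM1, SYNDIG1 and MYLK2 on chromosome 20, FAM178B on chromosome 2 and GAB4 on chromosome 22. REM1, which encodes a small GTP-binding protein that inhibits voltage-gated calcium channels, had folds of 5.44, 5.78, 4.91 and 5.68. MYLK2, the skeletal muscle myosin light chain kinase gene, had 3.61, 4.18, 4.96 and 3.42. GAB4, a gene of the GAB docking protein family, had 5.11, 5.49, 4.72 and 4.02. The order of the folds thus differed from gene to gene, and no order was tested.

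SYNDIG1, which encodes a synaptic membrane protein, had 4.14, 3.93, 2.95 and 2.99, and FAM178B had 4.45, 4.92, 3.25 and 5.31. Genes with an end peak in 3 libraries included NOS2, the inducible nitric oxide synthase gene on chromosome 17, with folds of 4.12 with DMSO, 5.36 with doxorubicin and 3.32 in the combination. GPT2, a mitochondrial alanine aminotransferase gene on chromosome 16, had 2.92 with DMSO, 4.12 with OTS186935 and 3.91 in the combination. TUBA8, an alpha-tubulin gene on chromosome 22, had 6.78 with DMSO, 4.3 with OTS186935 and 6.68 with doxorubicin. Of the 11 genes with an end peak in 3 libraries, 6 lacked the combination, 3 lacked OTS186935, 2 lacked doxorubicin and 0 lacked DMSO. The same count was not made over all genes. Among all genes an end peak was also most frequent with DMSO (38.7%) and least with the combination (14.8%), so this is no trait of the windows.

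Promoters gave the same order of libraries. Of the 260 protein-coding promoters in the windows, 17 (6.54%) were overlapped by a peak with DMSO, 13 (5%) with OTS186935, 8 (3.08%) with doxorubicin and 5 (1.92%) in the combination. Over all 22132 protein-coding promoters the shares were 14.4%, 9.97%, 6.84% and 5.13%. TPTE was the one protein-coding promoter of the windows overlapped in all 4 libraries (0.385%), against 2.34% of all.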

How the data were processed

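γH2AX ChIP-seq of 4 SK-UT-1 libraries was analysed from the peak lists the authors deposited. Chromatin was cross-linked, sonicated and pulled down with an anti-γH2AX antibody, per the labels. The genome build hg38 and the tools MACS2 2.2.7.1 (a peak caller), Bowtie2 2.4.2, bedtools 2.30.0 and Picard 2.25.3 come from the submitters' processing notes. For peak calling options and any control library, the sources used here give nothing. Each deposited row gave a fold enrichment (a ratio over local background), −log10 p, −log10 q and a score (10 times the −log10 q, cut to a whole number). The lowest deposited −log10 q was 1.0 in each list.

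Summit fragments and background were solved from fold and −log10 p, and 100% of rows matched within 0.002. Touching rows of 1 list were joined into 1 peak. It took the fold, fragments and background of its highest-fold summit and the highest −log10 q of its rows. Overlap of at least 1 bp counted as shared. Counting intervals are exact (Clopper-Pearson for shares, Poisson for fragments) at 95%. With 1 library per condition there is no replicate error and no test. Genes and promoters came from RefSeq tables of GRCh38.p14, which give gene extents without exons; genes had to lie wholly in a window. Solving and overlaps were tested on simulated data. Named items were, per window, the region in all 4 lists of highest DMSO fold, the top rows per list, the fullest contigs and those in all lists, and genes with end peaks in most lists; others are said to be picked later. Members, windows and lists were chosen with earlier results of these data known. Python 3.11.15, numpy 2.4.6, pandas 2.3.3, scipy 1.17.1 and matplotlib 3.10.9 were used.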

Additional observations from a re-analysis of the deposited data

How the results depend on the processing

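Each value below is given for DMSO, OTS186935, doxorubicin and the combination in that order, or for the 3 treated libraries. Of 82 alternative values, 35 stayed inside the main value's counting interval and 47 did not; 64 were planned and 18 added after the data were seen. The members' share of a list became 1.36%, 1.47%, 2.1% and 2.07% with rows of −log10 q of 5 or more, and 1.31%, 1.36% and 1.35% (DMSO, OTS186935, doxorubicin) with lists of equal length. It became 0.558%, 0.548%, 0.613% and 0.692% with windows trimmed by 1 Mb at both ends, and 1.06%, 1.05%, 1.08% and 1.12% without the contigs. DMSO peaks of all members with a counterpart (52.4%, 43.5% and 30.2%) became 34.1%, 22.5% and 13.3% at −log10 q of 5 or more, and 43.7%, 33.7% and 21.9% at a reciprocal overlap of 50%. With lists of equal length they became 51.7% with doxorubicin and 45.8% with the combination, and with trimmed windows 49.5% and 35.1%. Doxorubicin peaks found with the combination (35%) became 20.4% at −log10 q of 5 or more, 43.5% with equal lists and 26.1% at reciprocal overlap. Under these settings apart from trimming, and with peaks joined within 1 kb, the members' share from DMSO stayed above that of peaks outside in all 3 treated libraries; the nearest was 21.9% against 18.3%.

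High background (30.8%, 31.6%, 31% and 26.3% of members' peaks) became 46.7%, 48.6%, 47% and 51.3% at 2 times the floor and 15.8%, 15.3%, 13.8% and 7.45% at 5 times, so the combination was lowest at 5 times and highest at 2. At −log10 q of 5 or more it became 34.9% with DMSO and 31.9% with the combination. On the contigs the share from DMSO became 49.3%, 50.7% and 34.7% at reciprocal overlap, and 78% with doxorubicin and 70% with the combination for equal lists. In the chromosome 16 window it became 75% in each treated library for equal lists, and 35% with the combination without its fullest 1 Mb. Peaks outside gave 37.6%, 28.2% and 18.3% at reciprocal overlap, and 42.3%, 40.1% and 36% for equal lists. No replicate could be left out. No paired analysis was possible because each condition had 1 library.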
